A study of Mus musculus with 6 samples.

Results

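Imprinted growth genes are described here in day 6 embryoid bodies, aggregates formed by mouse embryonic stem cells as they differentiate. The genes Dlk1, Igf2, Igf2r, Cdkn1c, Grb10, Meg3, H19, Peg3, Mest and Peg10 were taken by name, and every probe set annotated to 1 of them alone was read. Of the 10 genes, 9 had such a probe set, 28 in all among the 45037 on the array that are not controls, which name 18193 genes. The array's 1 probe set for H19 is annotated to Mir675 as well, so H19 has no value here, and a probe set shared between Igf2r and another gene was left out too. Embryoid bodies of the Hoxb4i line, which carries an integrated tet-on cassette for HOXB4, were seeded at 3500 cells/ml. The doxy group was given doxycycline at 2 µg/ml on day 4 for 48 hours, and the uninduced group, of the same line with the same cassette, was not. Each group holds 1 array from each of experiments C, B and A, 6 arrays in all, which the series' design text calls biological replicates. All samples come from 1 modified line, and doxycycline without the cassette is not among the 6 samples.

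An imprinted gene is transcribed mainly from the copy inherited from 1 parent, because DNA methylation laid down in the egg or sperm marks the copies differently. Many imprinted genes act on growth of the embryo and placenta. As a rule those expressed from the father's copy, such as Igf2 and Dlk1, promote growth, and those expressed from the mother's copy, such as Igf2r, Cdkn1c and Grb10, restrain it. The arrays measure total transcript and do not tell the parental copies apart.

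The genes lie in several imprinted regions. In the mouse assembly GRCm38.p6, Dlk1 (chr12:109452485-109463336) is 77.7 kb from Meg3 (chr12:109540996-109571729), whose non-coding RNA comes from the mother's copy. Igf2 (chr7:142650768-142666816) is 72.6 kb from H19 and 791.5 kb from Cdkn1c (chr7:143458339-143461059). Peg3 lies at chr7:6703892-6730462, Mest at chr6:30733506-30748466, Peg10 at chr6:4747306-4760517, Grb10 at chr11:11930499-12037428 and Igf2r at chr17:12682406-12769706. RefSeq promoter windows of this assembly, from 250 bases before to 50 after a transcript start, were at hand for 7 of the 10 genes, 14 windows in all. H19, Cdkn1c and Peg10 have no entry. The windows of the neighbours Dlk1 and Meg3, of the receptor gene Igf2r and of Mest are shown because the first 3 genes were lower in experiment C than in B and Mest was not. Capitals mark TGCCGC on either strand, the letters that the imprint-protecting zinc finger protein ZFP57 is known to recognise when methylated.
Dlk1, chr12:109452573-109452872, plus strand: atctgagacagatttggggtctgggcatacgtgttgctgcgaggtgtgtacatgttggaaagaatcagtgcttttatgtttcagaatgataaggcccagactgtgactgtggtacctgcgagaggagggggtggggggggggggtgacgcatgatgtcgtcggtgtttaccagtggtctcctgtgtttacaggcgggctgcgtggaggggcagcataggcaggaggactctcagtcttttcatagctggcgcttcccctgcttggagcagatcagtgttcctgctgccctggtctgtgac
Meg3, chr12:109540746-109541045, plus strand: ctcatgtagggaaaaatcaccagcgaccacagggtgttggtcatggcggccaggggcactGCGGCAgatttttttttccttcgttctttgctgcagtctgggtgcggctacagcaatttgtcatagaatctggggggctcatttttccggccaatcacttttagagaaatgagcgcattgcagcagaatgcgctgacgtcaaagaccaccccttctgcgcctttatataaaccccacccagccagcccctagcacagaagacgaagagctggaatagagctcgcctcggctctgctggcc
Igf2r, chr17:12769657-12769956, minus strand: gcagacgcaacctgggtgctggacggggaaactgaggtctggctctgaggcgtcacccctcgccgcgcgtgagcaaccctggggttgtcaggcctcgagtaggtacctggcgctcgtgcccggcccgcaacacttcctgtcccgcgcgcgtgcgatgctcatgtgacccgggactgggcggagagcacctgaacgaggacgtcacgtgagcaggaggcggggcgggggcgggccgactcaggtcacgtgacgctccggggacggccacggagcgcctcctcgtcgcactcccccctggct
Mest, chr6:30737800-30738099, plus strand: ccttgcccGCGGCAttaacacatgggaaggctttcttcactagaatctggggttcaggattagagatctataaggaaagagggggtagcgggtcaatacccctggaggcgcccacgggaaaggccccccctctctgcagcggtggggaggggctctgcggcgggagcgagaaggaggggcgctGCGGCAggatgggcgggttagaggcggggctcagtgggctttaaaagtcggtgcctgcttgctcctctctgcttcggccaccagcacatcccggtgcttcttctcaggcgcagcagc
The Mest window holds 2 matches and the Meg3 window 1, and the Dlk1 and Igf2r windows hold none. Over all windows of these genes the letters occur in 5 of 14, in 4 of the 7 genes (Igf2, Meg3, Mest and Grb10), beside 11.6% of 32851 windows and 13.1% of genes in the RefSeq table. That table has 27025 genes, fewer windows per gene than the members have, so the shares by gene are not like for like. Each of the 4 genes has several windows, while Dlk1, Peg3 and Igf2r have 1 each and no match. Of the 5 windows, 2 are Mest windows that overlap. A further Mest window, chr6:30733256-30733555, and a further Meg3 window, chr12:109545148-109545447, hold no match. The CpG count was 34 in the Igf2r window, 17 in that of Mest, 13 in that of Meg3 and 9 in that of Dlk1, beside a median of 7 over all windows.

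The deposited values are MAS5 signals, brightness per probe set scaled to a common trimmed mean of 500 on each array, with array medians of 92.0 to 108.6. Of the 28 probe sets, 23 passed the filter on low signals that 27022 of all 45037 passed. All 9 genes with a value kept at least 1 probe set, and the one with the highest mean stands for its gene. The 5 left out were 1 of Dlk1 at 7.1 to 59.6, 2 of Peg3 at 1.0 to 41.0 and 1.2 to 14.2, and 2 of Grb10 at 15.7 to 82.1 and 24.7 to 111.0. Hoxb4, the induced gene, was brighter with doxycycline in each of the 3 experiments on both of its probe sets, at 116.4 to 175.5 in doxy arrays against 46.5 to 119.8 in uninduced arrays on one, with an adjusted p of 1 in limma. On the other the groups also overlapped, at 150.7 in the doxy array and 27.6 in the uninduced array of C, 261.4 and 253.0 in B, and 136.3 and 78.2 in A (adjusted p = 1). The uninduced array of A stood apart, with a 3' to 5' signal ratio of 2.88 for Actb against 1.26 to 1.48 on the other arrays. It held the highest or lowest of the 6 values for 53.8% of tested probe sets. Differences below are of log2(signal + 18.8), tested with limma across all tested probe sets with Benjamini-Hochberg adjustment at 0.05.

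The imprinted growth genes were high in experiment B and mostly low in C, and for each of the 9 the range of experiment means exceeded the largest difference between the arrays of 1 experiment. Of the 9 genes, 8 passed the F test across experiments, Grb10 being the exception, while 11.6% of all tested probe sets passed it. Backgrounds given in percent are over all tested probe sets, whereas members are counted by gene. Members were chosen with earlier results of these data known, so counts beside these backgrounds do not test the set. The members' mean signals lay at percentiles 55.8 to 99.4, and no background of like brightness was drawn. Counted by gene, 1741 of 12452 passed the F test. In C relative to B, 7 genes were lower and 0 higher, against backgrounds of 5.26% lower and 4.33% higher. In B relative to A, 7 were higher and 0 lower, against 2.09% and 1.91%. In C relative to A, Mest was higher and Dlk1, Igf2, Meg3 and Peg3 were lower, against 2.52% and 4.29%. The members' median difference was -1.98 for C minus B, -0.59 for C minus A and 1.12 for B minus A, beside 0.07, -0.01 and -0.08 over all tested probe sets. Both B arrays were above the other 4 for 8 of 9 genes (background 12.2%), both C arrays below the other 4 for 6 (15.3%), and both held for 6 (4.19%). By gene these 3 orders held for 1859, 1996 and 689 of 12452. Also by gene, 864 were lower and 720 higher in C than in B, and 344 higher and 295 lower in B than in A. In C relative to A, 345 were higher and 578 lower.

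Each experiment was run once, with an induced and an uninduced array. These p-values therefore measure only the spread between arrays within an experiment, which limma estimates for each probe set with help from all others tested. What set the experiments apart cannot be told apart from the experiment itself. An experiment left with 1 array has no spread of its own, so calls from such fits rest on the spread of the other experiments. The B minus A and C minus A calls depend on how limma models the spread. Without its intensity trend none of the members' calls in either contrast held, while 7 of C minus B did. Without the uninduced array of B, 2 of the 7 B minus A calls were left, and 0.514% of all probe sets passed in either direction. Without the uninduced array of A, 8 genes were lower in C than in B, 8 higher in B than in A, and 5 lower and 1 higher in C than in A. The share of all probe sets called in either direction was then 30.0% for C minus B, 10.8% for B minus A and 14.7% for C minus A, against 9.59%, 4.0% and 6.82% with all arrays, so calls gained there came with a higher background.

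**Figure D1:**
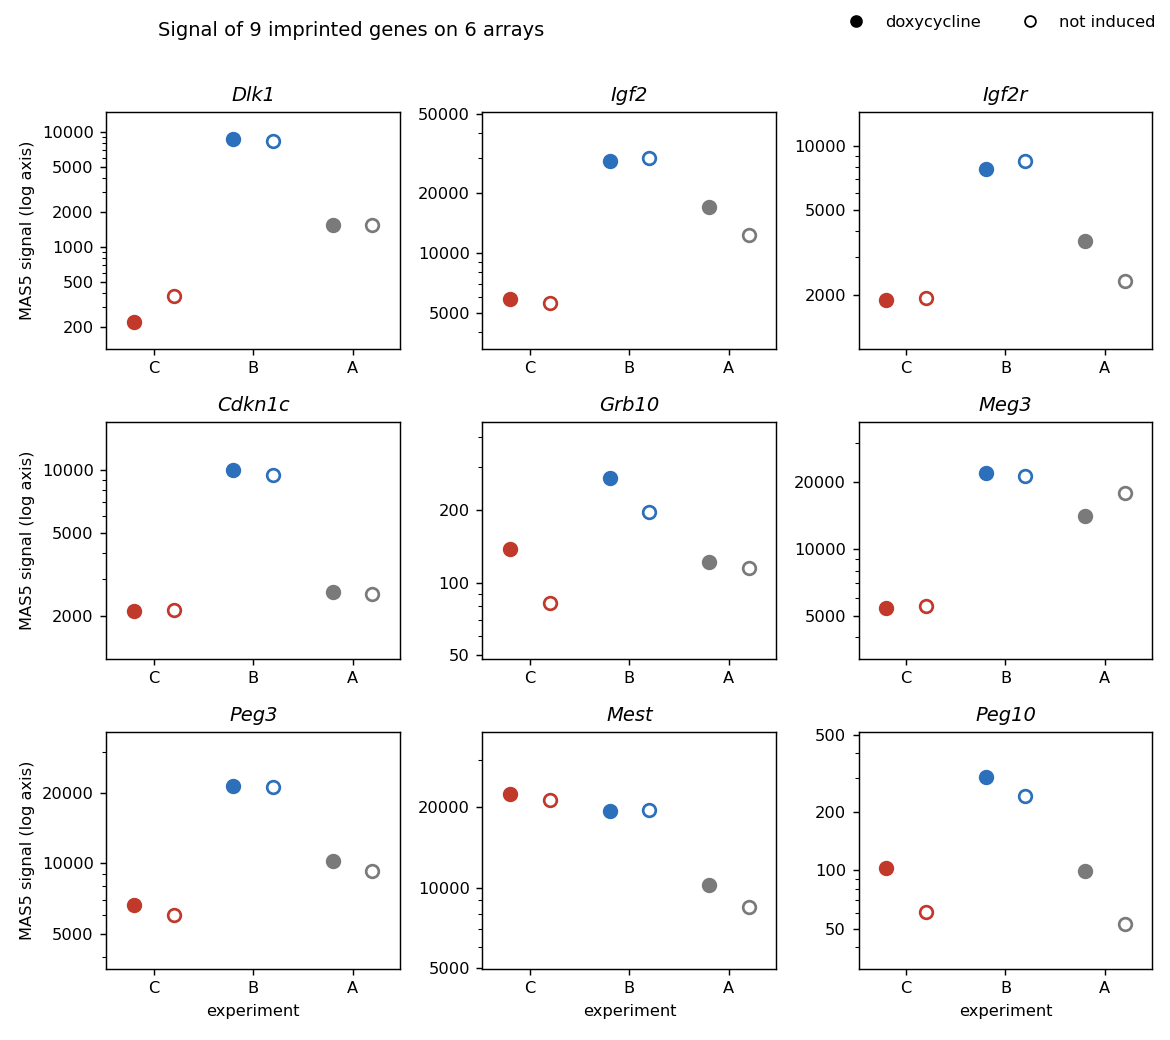
MAS5 signal (log axis) of the representing probe set of each of the 9 genes on the 6 arrays, by experiment C, B and A, with filled points for doxycycline and open points for uninduced arrays. In B both points lie above all others for every gene but Mest, whose B points lie between those of C and A.

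Igf2 encodes the insulin-like growth factor that drives fetal growth. Its signal on probe set 1448152_at was 5904.8 in the doxy array and 5614.2 in the uninduced array of C, 29054.5 and 29976.3 in B, and 16959.1 and 12258.5 in A. The experiments did not overlap, with B high and C low. Igf2 was lower in C than in B by a log2 difference of -2.35 (95% interval -2.70 to -2.00, limma adjusted p = 0.000148), and lower in C than in A by -1.32 (adjusted p = 0.00578). It was higher in B than in A by 1.03 (adjusted p = 0.0149), a call that was lost when each gene's tested probe sets were averaged (1.24, adjusted p = 0.0812). The second, dimmer probe set 1415931_at read 19.9 and 61.3 in C, 502.8 and 538.8 in B, and 326.7 and 95.5 in A, doxy array first in each pair, in the same order of experiments.

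Dlk1 encodes a transmembrane protein related to the Notch ligands, which keeps fat cell precursors from maturing and is secreted after cleavage. It had the widest range of the 9 genes, 5.19 on the log2 scale. Its signal on 1449939_s_at was 221.5 in the doxy array and 376.3 in the uninduced array of C, 8766.2 and 8354.8 in B, and 1549.9 and 1551.0 in A. The 3 experiments formed separate levels, the mean in C being 0.035 of that in B and 0.193 of that in A. The log2 difference was -4.80 for C minus B (95% interval -5.35 to -4.25, limma adjusted p = 6.75e-05), -2.35 for C minus A (adjusted p = 0.00358) and 2.45 for B minus A (adjusted p = 0.00417).

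Igf2r encodes the receptor that binds IGF2 and carries it to lysosomes for breakdown. On 1424112_at its signal was 1891.8 in the doxy array and 1919.7 in the uninduced array of C, 7788.6 and 8492.5 in B, and 3576.9 and 2325.5 in A. Igf2r thus had the same order of experiments as its ligand's gene. It was lower in C than in B by -2.08 (95% interval -2.57 to -1.60, limma adjusted p = 0.000899) and higher in B than in A by 1.49 (adjusted p = 0.0136). The difference between C and A, -0.59 with an interval of -1.08 to -0.11, did not pass (adjusted p = 0.117). Without the uninduced array of A the estimate was -0.94. A second probe set, 1424111_at, read 1128.1 and 1450.0 in C, 6105.0 and 6258.5 in B, and 2411.6 and 1933.4 in A, doxy array first.

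Cdkn1c encodes p57, an inhibitor of cyclin-dependent kinases that restrains proliferation. Its signal was 2110.2 in the doxy array and 2137.0 in the uninduced array of C, 9979.6 and 9486.3 in B, and 2607.3 and 2538.0 in A. High values were those of B, with C and A close to each other. The log2 difference was -2.19 for C minus B (95% interval -2.54 to -1.83, limma adjusted p = 0.000198) and 1.91 for B minus A (adjusted p = 0.00274). For C minus A it was -0.27, with an interval of -0.63 to 0.08 and an adjusted p of 0.28.

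Grb10 encodes an adaptor that dampens signalling from the insulin and IGF1 receptors. Its tested probe set, 1425458_a_at, was dim, at 137.7 in the doxy array and 82.3 in the uninduced array of C, 271.5 and 196.0 in B, and 122.1 and 114.5 in A. Both B arrays read above the rest, but no contrast passed, with -0.99 for C minus B (95% interval -1.76 to -0.22, limma adjusted p = 0.115), 0.87 for B minus A (adjusted p = 0.171) and -0.12 for C minus A (adjusted p = 0.844). The C minus B estimate was the same without either array of A, and its adjusted p was then 0.0187 (uninduced array left out) and 0.0195 (doxy array left out), in settings where 30.0% and 30.1% of all probe sets passed that contrast.

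Meg3, the non-coding RNA gene beside Dlk1, had 11 probe sets. On 1439380_x_at, which had the highest mean among them, the signal was 5435.6 in the doxy array and 5549.4 in the uninduced array of C, 21984.6 and 21403.7 in B, and 14054.1 and 17850.0 in A. Low values were again those of C, while B and A lay closer together than for Dlk1. The log2 difference was -1.98 for C minus B (95% interval -2.30 to -1.65, limma adjusted p = 0.000213) and -1.52 for C minus A (adjusted p = 0.00235). For B minus A it was 0.45 (adjusted p = 0.109), and 0.63 without the uninduced array of A. Of the 11 probe sets, 6 with means of 454.1 to 14379.6 were lower in C than in B, by -2.26 to -1.75. The other 5, with means of 131.5 to 276.2, had differences of -0.97 to -0.25 and adjusted p of 0.125 to 0.671.

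Peg3 encodes a large zinc finger protein expressed from the father's copy. On 1433924_at its signal was 6661.1 in the doxy array and 6028.4 in the uninduced array of C, 21361.6 and 21178.5 in B, and 10254.7 and 9307.5 in A. The order was again B, A, C without overlap on this probe set. On 1417356_at the C signals, 3038.3 and 2630.9, lay between those of A, 4486.0 and 1915.5. There C minus A was -0.05 (limma adjusted p = 0.926), while on 1417355_at it was -1.27 (adjusted p = 0.00448). C minus B was -2.12 on 1417356_at and -2.05 on 1417355_at. On 1433924_at the log2 difference was -1.74 for C minus B (95% interval -2.03 to -1.45, limma adjusted p = 0.000232) and 1.12 for B minus A (adjusted p = 0.00729). For C minus A it was -0.62 (adjusted p = 0.0314), which did not pass without the doxy array of C (adjusted p = 0.148) or without its uninduced array (adjusted p = 0.26), nor with no filter (adjusted p = 0.0644) or averaged probe sets (adjusted p = 0.0543).

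Mest, expressed from the father's copy and encoding a hydrolase-like protein of the endoplasmic reticulum, had another order. Its signal was 22471.3 in the doxy array and 21361.6 in the uninduced array of C, 19342.5 and 19487.7 in B, and 10219.3 and 8458.3 in A. Values were high in C and B and low in A. Mest was higher in C than in A by 1.24 (95% interval 0.94 to 1.53, limma adjusted p = 0.00358) and in B than in A by 1.06 (adjusted p = 0.00838). Between C and B the log2 difference was 0.17 (interval -0.12 to 0.46, adjusted p = 0.454).

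Peg10, a gene derived from a retrotransposon and needed for the placenta, was dim. Its signal was 102.1 in the doxy array and 60.5 in the uninduced array of C, 302.0 and 240.4 in B, and 99.2 and 52.7 in A. Both B arrays read above the rest, and C and A overlapped. The log2 difference was -1.56 for C minus B (95% interval -2.37 to -0.75, limma adjusted p = 0.0304) and 1.65 for B minus A (adjusted p = 0.0448). The C minus B call was lost without any 1 array of C or B (adjusted p = 0.152 to 0.274), and so was B minus A if either B array was left out (adjusted p = 0.153 and 0.46). With every probe set tested, dim ones included, neither passed (adjusted p = 0.0717 and 0.0951). For C minus A the difference was 0.09 (adjusted p = 0.893).

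**Figure D2:**
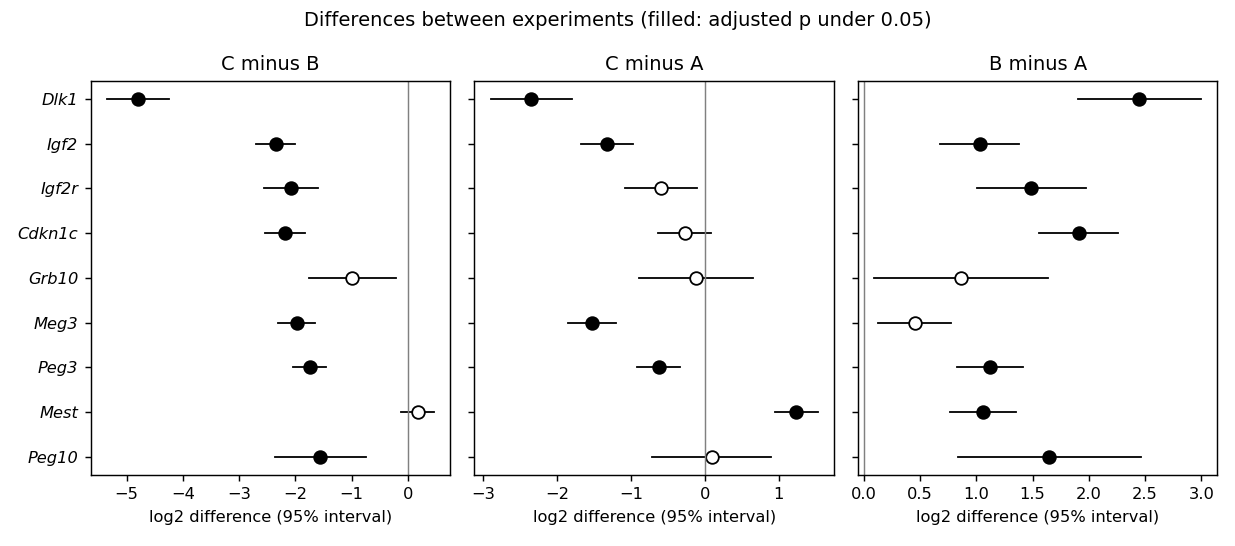
Log2 differences between experiments, C minus B, C minus A and B minus A, for the 9 genes, with 95% intervals from limma, filled points being past the adjusted threshold of 0.05 and open points not. In C minus B the point of Dlk1 lies at -4.80 and that of Mest at 0.17, with the other 7 between -2.35 and -0.99.

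By expressed copy, the 5 genes transcribed from the father's copy (Igf2, Dlk1, Peg3, Mest, Peg10) had a median C minus B of -1.74, with 4 lower. The 4 measured genes transcribed from the mother's copy (Igf2r, Cdkn1c, Grb10, Meg3) had a median of -2.03, with 3 lower. No test of a difference between these sets was made.

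Doxycycline against none, the comparison the study was built for, gave no call among the 9 genes or among all 27022 probe sets (background 0%), each with a limma adjusted p of 1. Unadjusted p-values under 0.05 numbered 76 for higher and 62 for lower over all probe sets, and lay at 0.399 to 0.966 for the 9 genes. On the representing probe sets the members' log2 differences, doxy minus uninduced, ran from -0.22 for Dlk1 to 0.55 for Peg10, with a median of 0.11. Over all 23 tested probe sets of the members the median was -0.016, with 11 higher and 12 lower, beside 0.01 over all probe sets. Because this fit counts differences between experiments as spread, Igf2 averaged 17306 ± 11579 in doxy arrays and 15950 ± 12594 in uninduced arrays (SD, n = 3 each), and Dlk1 3513 ± 4598 and 3427 ± 4308. The members' 95% intervals reached 0.96 to 3.31 to either side of the estimate. With the experiment as a replicate block these intervals reached 0.24 to 0.66, and the members' unadjusted limma p lay at 0.093 to 0.809.

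Within experiments, doxycycline and uninduced arrays lay close in B and C on the members' representing probe sets. Their median absolute log2 difference was 0.07 in C, 0.07 in B and 0.27 in A. Over the representing probe sets of all 12452 genes it was 0.237, 0.184 and 0.306. Over all 23 tested probe sets of the members it was 0.265 in C, 0.105 in B and 0.316 in A. Beside 0.255, 0.209 and 0.374 over all tested probe sets, the members were then no closer in C. The doxy array was the higher one for 5 of 9 genes in C, 6 in B and 7 in A, against 51.9%, 51.1% and 46.4% of all probe sets. Peg10 was higher with doxycycline in each experiment, by 0.61 in C, 0.31 in B and 0.72 in A, as were Grb10, by 0.63, 0.43 and 0.08, and Peg3 on its representing probe set, by 0.14, 0.01 and 0.14. Peg3 was lower with doxycycline in each experiment on the bright probe set 1417355_at, by -0.13 in C, -0.13 in B and -0.05 in A, and on 1417356_at it differed by 0.21, -0.11 and 1.22. A shared direction on the representing probe set held for 3 of 9 genes and for 26% of all probe sets. With the experiment as a replicate block, Peg10 had an interval of -0.11 to 1.21 and Grb10 of -0.25 to 1.01, and the members' adjusted p lay at 0.93 to 0.985. The within-experiment differences of Dlk1, -0.72 in C, 0.07 in B and -0.001 in A, were small beside its 4.80 range of experiment means.

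**Figure D3:**
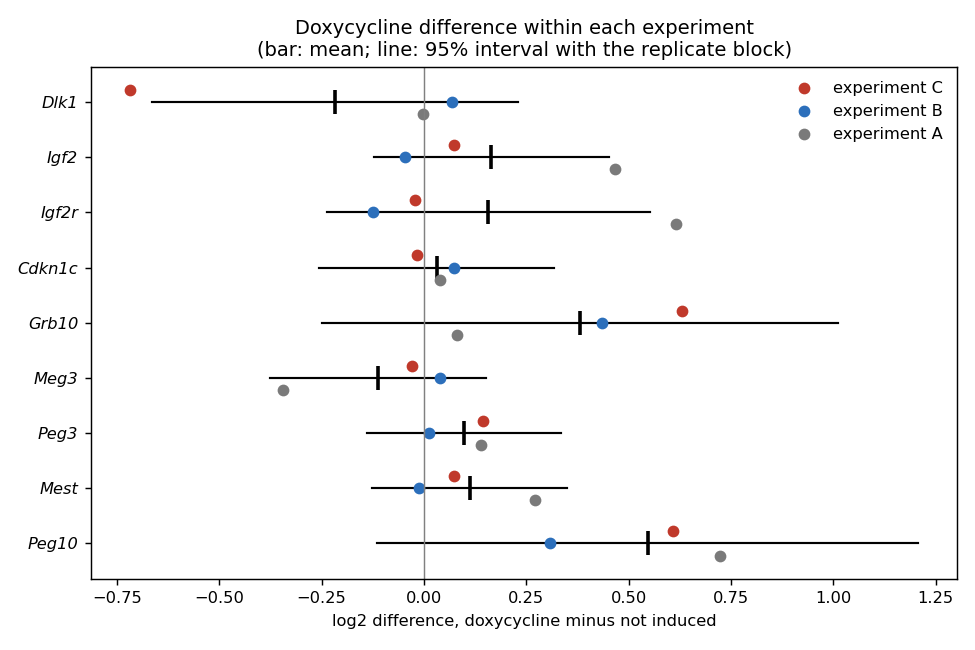
Log2 differences, doxy minus uninduced, for the representing probe sets of the 9 genes in experiments C, B and A (points), with the mean and 95% interval of the fit with the experiment as a replicate block. All intervals include 0, and the points of Peg10, Grb10 and Peg3 lie above 0 in all 3 experiments.

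Probe sets of a gene disagreed about doxycycline, in A and in the other experiments as well. Peg3 read 4486.0 in the doxy array and 1915.5 in the uninduced array of A on 1417356_at, a log2 difference of 1.22, while it differed by 0.14 and -0.05 on the other 2 tested probe sets. Meg3 read 6403.4 in the doxy array and 2981.6 in the uninduced array on 1436713_s_at, a difference of 1.10, while its other 10 probe sets were lower with doxycycline in A, by -0.68 to -0.02. For Igf2 the differences in A were 0.47 and 1.60, and for Igf2r 0.62 and 0.32, alike in sign but not in size. In C, Igf2 differed by 0.07 and -1.05. Meg3 ran from -0.53 to 0.43 in C and from -0.31 to 0.27 in B. The uninduced array of A is the one with the raised 3' to 5' ratio, and its part in the disagreements within A was not tested.

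**Figure D4:**
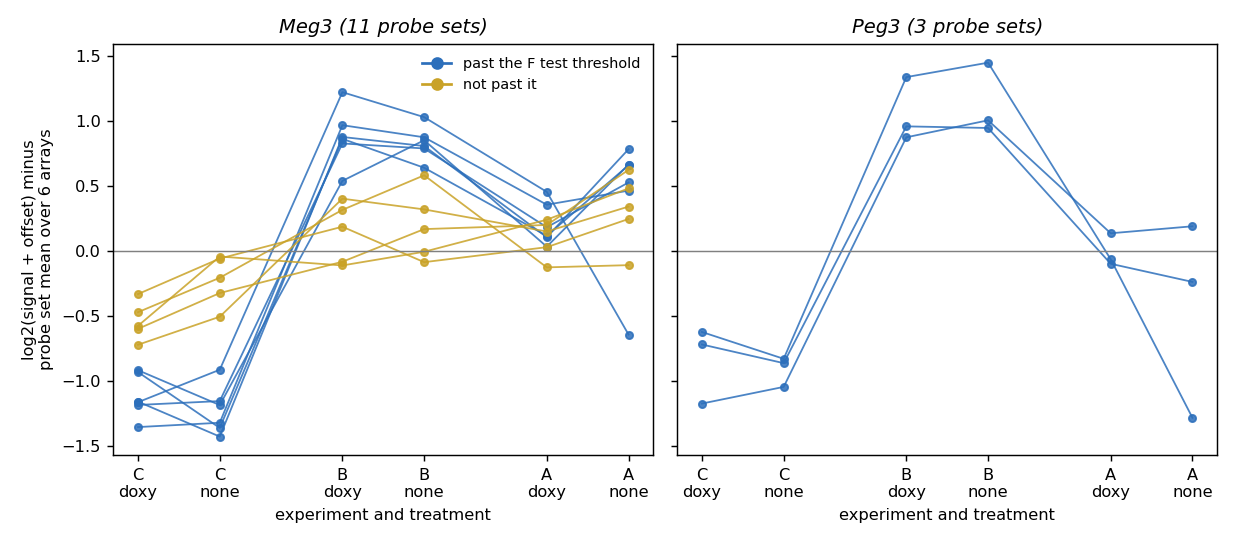
Log2(signal + 18.8) of each tested probe set of Meg3 (11) and Peg3 (3), minus its own mean over the 6 arrays, on the doxy and uninduced arrays of C, B and A; lines join the arrays of 1 probe set, blue for those past the F test across experiments and yellow for the others. The yellow Meg3 lines are flatter between C and B than the blue ones, and 1 line of each gene drops on the uninduced array of A.

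Other imprinted genes did not all follow. Of 55 listed, 37 were tested and 14 passed the F test, with 9 lower and 5 higher in C than in B and a median of -0.02. Over all probe sets 11.6% passed the F test, and 5.26% were lower and 4.33% higher in C than in B. In B relative to A, 2.09% were higher and 1.91% lower. These backgrounds apply to the lists and markers below as well. Phlda2, a brake on placental growth that lies 40.5 kb from Cdkn1c, read 258.3 in the doxy array and 553.1 in the uninduced array of C, 10592.0 and 10735.7 in B, and 4931.3 and 4238.5 in A, a C minus B of -4.75 (limma adjusted p = 0.000127). Its low level in C and high level in B resembled Dlk1. Plagl1, a zinc finger gene of the imprinted network, was higher in B than in A by 2.72 (adjusted p = 0.00208) and in C than in A by 1.96 (adjusted p = 0.00311). Airn, the non-coding RNA that silences Igf2r on the father's copy, was lower in C than in B by -2.48 (adjusted p = 0.00396). Gatm, a creatine synthesis enzyme, was higher in C than in B by 3.04 (adjusted p = 0.00284).

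In the IGF pathway, 19 of 26 genes were tested and 6 passed the F test, 4 lower and 1 higher in C than in B. The binding protein gene Igfbp2 was higher in C than in B by 1.94 (limma adjusted p = 0.000415), whereas Igfbp4 was lower by -1.48 (adjusted p = 0.00137) and Igfbp5 by -1.53 (adjusted p = 0.00278). Binding proteins of the same ligand thus went in opposite directions. Irs2, an adaptor of the insulin and IGF1 receptors, was lower in B than in A by -2.08 (adjusted p = 0.0219). Of 15 tested genes that maintain imprints or DNA methylation, 1 passed the F test, the methyltransferase gene Dnmt3b. It was lower than in A both in C, by -0.96 (adjusted p = 0.025), and in B, by -0.93 (adjusted p = 0.034). Its C minus B was -0.03 (adjusted p = 0.947). Another gene, Zfp42, was higher in C than in B (adjusted p = 0.0429) though its F test did not pass. Of 13 Notch family genes 4 passed, with the ligand genes Dll1, Jag1 and Dll3 higher in C than in B, by 3.14, 2.18 and 2.38, opposite to Dlk1, and the target Hey2 lower by -2.04. The 4 tested CDK inhibitor genes other than Cdkn1c had F-test adjusted p of 0.169 to 0.785 in limma. Of 4 tested genes of the GRB7 family and its partners 1 passed, Grb14, another dampener of insulin signalling, lower in C than in B by -2.62 (adjusted p = 0.00855). Calls of 1 gene in lists this small say little beside the 11.6% of all probe sets that passed. Doxycycline gave no calls in these lists, as over all probe sets.

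Markers of several cell types moved between the same experiments. Of 9 tested mesenchyme markers 7 passed the F test, 7 lower in C than in B and 7 higher in B than in A, and their summed signal was 4917.2 and 4880.4 in C, 36266.8 and 37771.6 in B, and 5506.1 and 7838.9 in A, doxy array first. The members' own sum was 44936.1 and 43129.4 in C, 118851.1 and 118816.2 in B, and 59442.6 and 54456.0 in A. Mest, which was not low in C, made up 22471.3 and 21361.6 of the sums there. The members' and the mesenchyme sums were highest in B, as were those of the visceral endoderm, blood, cardiac and trophoblast markers below. Of 10 visceral endoderm markers 8 passed, 5 lower in C than in B, with sums of 1019.1 to 1204.6 in C, 13003.9 to 13445.8 in B and 7714.6 to 9244.3 in A. Ttr, the thyroid hormone carrier transthyretin, made up most of that sum in B, and without it the sums were 927.9 to 1044.9 in C, 2302.6 to 2335.5 in B and 3856.6 to 5030.2 in A, highest in A. Of these markers 2 were higher and 3 lower in B than in A, with a median of -0.80, among them Afp at -2.60 and Foxa2 at -1.74 (limma adjusted p = 0.0114 and 0.0137). Blood markers (2 of 5 tested passed) summed to 1503.8 to 1559.5 in C, 26038.0 to 35822.8 in B and 505.2 to 2976.6 in A. Hbb-bh1 made up 20436.5 and 27950.9 of the sums in B. Cardiac markers (3 of 6 passed) summed to 504.7 to 586.4 in C, 2151.6 to 3992.0 in B and 1362.0 to 1674.5 in A.
Neural markers mostly ran the other way, with 6 of 8 higher in C than in B and sums of 9847.9 to 10627.4 in C, 1399.3 to 1737.2 in B and 4483.5 to 6872.6 in A. Sox2, at 6064.6 and 6163.4 in C, made up most of the sum there. Of the rest, Neurod1 was higher in C than in B by 1.74 and Ncam1 lower by -0.75, neither called (limma adjusted p = 0.137 and 0.102). Pluripotency markers summed to 1430.0 to 1570.0 in C, 695.5 to 818.4 in B and 1319.9 to 1746.0 in A, 2 of 6 being higher in C than in B. Trophoblast markers, 4 of 10 of them tested, summed to 889.0 to 999.3 in C, 1972.9 to 2793.2 in B and 1496.5 to 1740.4 in A, where Hand1 alone passed. Without Hand1 the order turned, with sums of 722.0 to 824.7 in C, 324.1 to 430.8 in B and 487.4 to 609.3 in A, and the median C minus B of the 4 tested markers was 0.52. Elf5, Tpbpa, Ascl2 and Psg17, which define trophoblast lineages, were too dim to be tested. The part of these cell types in the members' differences was not tested. In such bulk samples fewer cells of a type and less RNA per cell cannot be told apart.

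**Figure D5:**
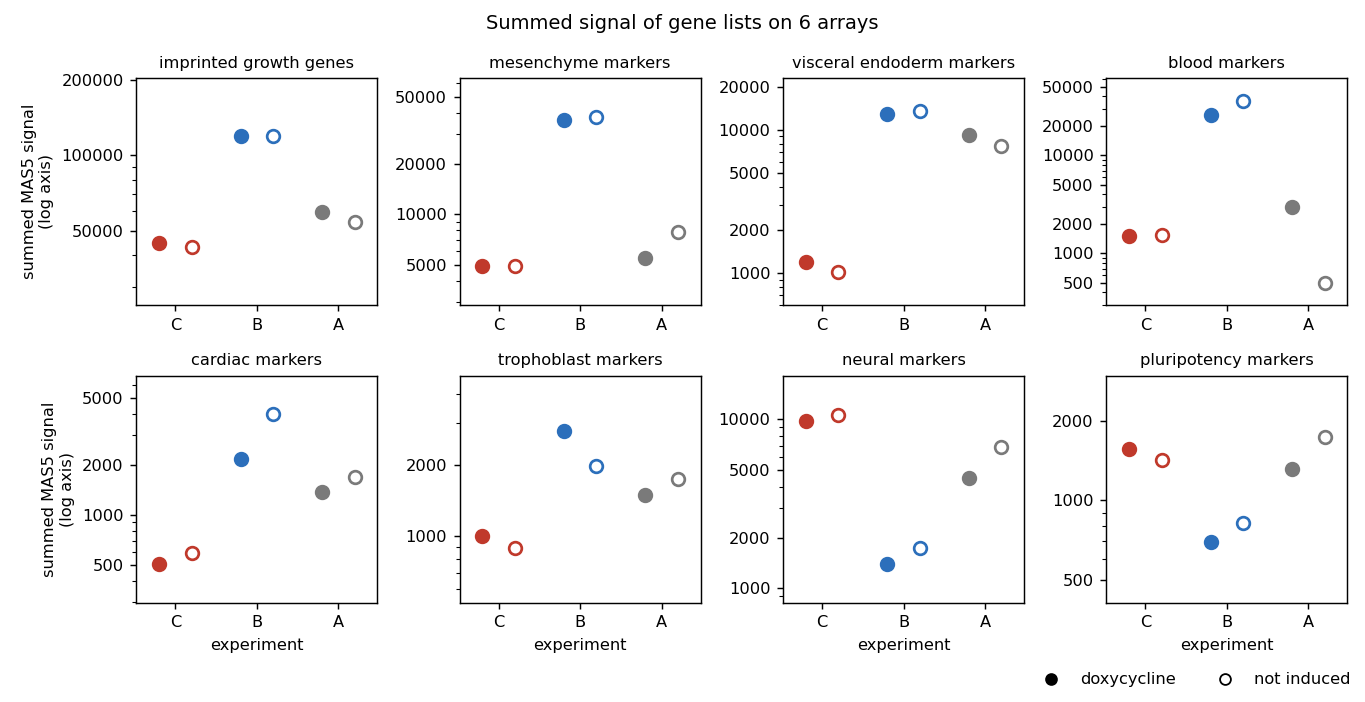
Summed MAS5 signal (log axis) of the imprinted growth genes and of marker lists on the 6 arrays, by experiment C, B and A, with filled points for doxycycline and open points for uninduced arrays. The imprinted growth genes and the mesenchyme, visceral endoderm, blood, cardiac and trophoblast markers are all highest in B. The neural and pluripotency markers are lowest there.

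The gene profiles most like that of Dlk1 were found by the root mean square distance between log2 profiles over the 6 arrays, each centred on its own mean, among 12451 genes. They were Zfp9 at 0.25, Rgs5, a regulator of G protein signalling found in pericytes, at 0.27, Pcolce, an enhancer of procollagen processing, at 0.31, Smoc2, a matrix protein, at 0.40, and Col1a1, a chain of type I collagen, at 0.40. Rgs5 read 46.4 in the doxy array and 74.7 in the uninduced array of C, 2272.6 and 2064.9 in B, and 640.3 and 417.4 in A. Among the imprinted growth genes Igf2 was nearest to Dlk1, at rank 179, and Mest farthest, at rank 8340. The distance depends on the size of differences as well as on their order, so a smaller range alone lowers a gene's rank.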

How the data were processed

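The authors deposited 1 intensity per probe set for each of 6 Affymetrix Mouse Genome 430 2.0 arrays, made with MAS5 per the submitters' processing notes; its version is not given in the sources used here. Per the labels' protocols, 4.3 µg of total RNA was labelled per array. The values had the same trimmed mean of 500 (2% off each end) on every array, and no further scaling was applied. The number of arrays limits the precision.

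Here 64 control probe sets were left out, log2(signal + 18.8) was taken, 18.8 being the 20th percentile of all values, and probe sets with a mean below the 40th percentile were not tested. The offset understates changes of dim genes. Tests used limma 3.58.1 in R 4.3.3 (empirical Bayes with intensity trend, two-sided): a group model for doxycycline, and experiment means with group as covariate for the experiments. Both were checked on simulated data. For doxycycline the simulated arrays held no differences between experiments, so the check does not tell what that model can detect here. Names came from GEO's platform annotation, updated through RefSeq (GRCm38.p6) for 34741 of 34945 probe sets with 1 gene; 932 had several genes and 9160 none.

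Deviations of same-letter arrays from their group means correlated at 0.445 (A), 0.671 (B) and 0.66 (C), and the labels name a shared experiment, so letters pair the arrays. The text names all members, up to 4 genes per list with the smallest F-test p, and the 5 profiles nearest to the member with the widest range. Zfp42, the values of Rgs5, Zfp9 and Pcolce, and the marker sums were singled out beyond this. Sums without Ttr or Hand1 were chosen after seeing the data. Members and lists were chosen with earlier results of these data known. Alternatives were other offsets and filters, no trend, quantile normalization, the replicate block, averaged probe sets, no group term, and leaving out arrays or experiments.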

Additional observations from a re-analysis of the deposited data

How the results depend on the processing

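Over all tested probe sets, calls between experiments numbered 3138 (F test), 1082 (B minus A), 1842 (C minus A) and 2591 (C minus B). Without the intensity trend they numbered 1186, 76, 174 and 1686 in that order, and without the filter B minus A gave 702 and C minus A 1089. Leaving out 1 array at a time gave 1502 to 13806 for the F test, 139 to 9262 for B minus A, 264 to 9709 for C minus A and 1018 to 8126 for C minus B; an experiment left with 1 array is then assumed to vary like the others, and the counts rose where an array of A was left out. The members' C minus B estimates kept their sign wherever they were tested, with 6 to 8 of 9 called; with the filter at the 60th percentile Grb10 and Peg10 were not tested and 6 of the other 7 were called.

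For doxycycline, the fit with the replicate block made 0 calls (smallest adjusted p = 0.93, 1065 probe sets at an unadjusted p under 0.05), so the pairing changed no call. Estimates of members that changed sign when 1 array was left out ranged from -1.50 to 1.10 for Dlk1, -0.42 to 0.80 for Igf2, -0.72 to 0.45 for Meg3, -0.36 to 0.60 for Peg3, -0.31 to 0.45 for Mest, -0.66 to 0.70 for Cdkn1c and -0.37 to 0.82 for Igf2r, as such a step unbalances the experiments. Without both arrays of A, Meg3 gave 0.0044 and Igf2r -0.073, and without both of C, Dlk1 gave 0.034. For C minus A, Peg10 gave -0.067 under quantile normalization and -0.040 to 0.22 with 1 array left out, and Grb10 -0.35 to 0.10; neither was called, and the cause was not tested. The table holds no detection calls, and Grb10 and Peg10, at percentiles 57.1 and 55.8 of mean signal, were the dimmest of the 9 genes.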
